A study of Mus musculus with 12 samples.

Results

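The histone genes of the E15.5 mouse ovary were taken from the deposited count table as all protein-coding genes whose symbol starts with Hist1h to Hist4h, H1f, H2af or H3f. They numbered 82 of the 54532 genes counted. Of these, 67 carried a Hist symbol and are called clustered genes here, since nearly all lie side by side in the genome, and 15 were variant genes. The clustered genes fell into 54 Hist1 genes on chromosome 13, 10 Hist2 genes on chromosome 3, 2 Hist3 genes on chromosome 11 and 1 Hist4 gene on chromosome 6. They encoded linker histone H1 (6 genes), H2A (18), H2B (18), H3 (12) and H4 (13). The variants comprised 4 H1, 9 H2A and 2 H3 genes.

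Bulk RNA-seq was performed on ovaries of embryos bearing the transgene Tg(Pou5f1-EGFP)2Mnn, whose Pou5f1 (OCT4) regulatory sequence makes germ cells fluoresce. All dams were injected intraperitoneally each day from E12.5 to E15.5, with 10 µg of the glucocorticoid dexamethasone (dex) per g body weight or with saline, and ovaries were collected at E15.5. There were 4 groups of 3 libraries each: GFP-positive germ cells after saline or dex, and GFP-negative somatic cells (soma) after saline or dex. Each library was made from ovaries pooled over at least 2 litters dosed separately, so the spread given is between pools rather than between single embryos. The soma is a mixture defined only by lack of the reporter, and in such bulk samples fewer cells of a type and less RNA per cell cannot be told apart.

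Histones package DNA into nucleosomes, each wrapped around pairs of H2A, H2B, H3 and H4, with H1 binding the linker DNA between them. Clustered genes are transcribed mainly during DNA replication, and their RNAs typically end just after a short stem-loop bound by the protein Slbp in place of a poly-A tail. Variant genes are transcribed throughout the cell cycle, have ordinary poly-A tails and supply histones that replace the replication-dependent forms. The libraries were made from RNA captured on poly-dT beads. The levels of clustered genes below therefore describe the RNA that this capture recovered, not all RNA of these genes.

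The stem-loop is shown because it is what separates the RNA ends of the 2 classes. GENCODE M21 transcripts (GRCm38, the assembly also called mm10) were searched within 100 nt after the stop codon for a hairpin of 16 nt with 6 base pairs and a loop of 4 nt. It had to start with GG, end with CC and hold at least 2 T in the first 3 loop bases, with G-T pairs allowed. The search thus asked for this sequence form rather than for any hairpin. A hairpin was found in 46 of the 52 clustered genes with at least 16 nt annotated after the stop codon (88.5%). It was found in 1 of 12 variants and in 33 of 20917 other coding genes (0.158%). The variant was H2afx, whose product marks DNA double-strand breaks when phosphorylated. The sites of 5 genes described below are given as DNA, 5′ to 3′ on the coding strand, with the hairpin in capitals.
Hist1h1c (hairpin at chr13:23739512-23739527, plus strand): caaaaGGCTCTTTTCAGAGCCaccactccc
Hist3h2ba (chr11:58949349-58949364, plus strand): ccaaaGGCTCTTTTCAGAGCCaccttccaa
Hist1h4n (chr13:21831798-21831813, minus strand): ctaaaGGCCCTTTTCAGGGCCatccaatta
Hist1h1t (chr13:23696525-23696540, plus strand): ccaaaGGCTCTTTTAAGAGCCacttacata
H2afx, the variant with a hairpin: acaaaGGCCCTTTTAAGGGCCaccacctcc

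An annotated transcript with a poly-A signal (AATAAA or ATTAAA in its last 50 nt) was present for 17 clustered genes, 14 of which also had the hairpin, and for 10 of 15 variants. Hist1h1c and Hist3h2ba had both, with 840 and 169 nt of annotated transcript beyond the hairpin. Hist1h4n, with 31 nt beyond it, had no poly-A signal. Clustered genes thus differed in whether this signal was found, which does not settle whether a tailed form exists. Hist1h1e had no signal but 1153 nt of annotated transcript beyond its hairpin, and the variant H2afy had no signal either. For 13 clustered genes no sequence after the stop codon was annotated, so no signal could be found in them.

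Detection differed greatly between the classes. The median clustered gene had a mean of 9.25 counts per library and the median variant 1146. A mean of at least 100 counts was reached by 2 clustered genes and 10 variants. Altogether 71 of the 82 genes reached 3 counts in at least 1 library, namely 59 clustered genes and 12 variants, and 7 genes had no count in any library. Variants without a count were H2afb1 and H2afb2, and H1fnt had 4 counts in all. These encode histones known from spermatid and testis chromatin. The 5 clustered genes without a count were Hist2h2aa1, Hist2h2aa2, Hist2h2bb, Hist2h3b and Hist2h3c1.

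Near-identical copies limit what counts per gene mean in these clusters. When the transcripts were cut into windows of 100 bases, 0% of the windows of those 5 clustered genes were found in no other gene. Another 23 clustered genes had up to 50% unique windows and a median of 51 counts over the 12 libraries. Those with over 50% and up to 90% (26 genes) had a median of 144 counts, and those above 90% (13 genes) a median of 229. How reads that match several copies were counted is not given in the sources used here, so values of genes with few unique windows are uncertain. H2afz and H3f3a, which have pseudogene copies, had 74.3% and 79.2% unique windows.

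**Figure D1:**
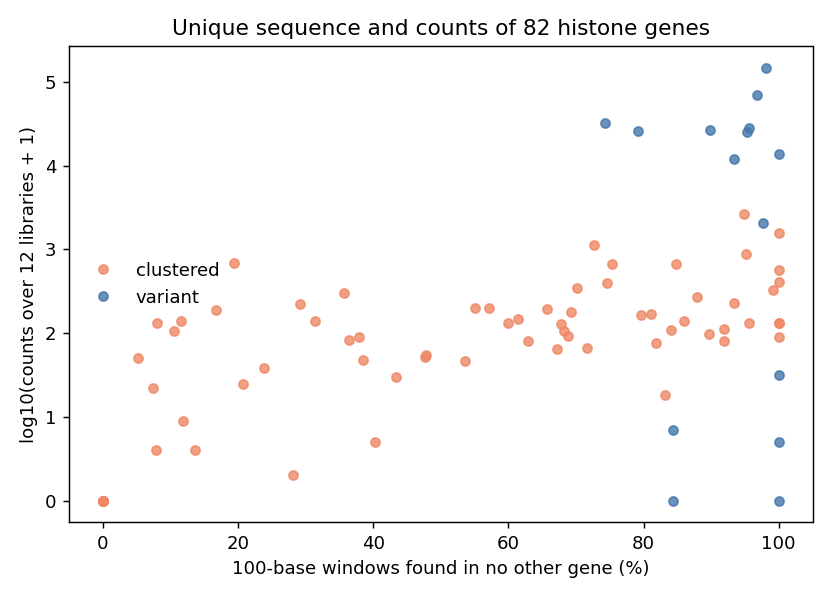
Each point is 1 of the 82 histone genes, with the share of its 100-base windows found in no other gene on the x axis (%) and log10 of its counts over the 12 libraries plus 1 on the y axis. The 5 clustered genes at 0% unique windows all lie at 0 counts, and the 9 highest points are variants at 74.3% to 100% unique windows.

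Library totals ranged from 14658503 to 18245507 counts, so 3 counts corresponded to 0.169 to 0.201 CPM (counts per 1000000 of the library total after TMM scaling). The sorted fractions matched their labels. All 7 germ cell markers tested were called higher in germ cells, in saline and in dex libraries. Of these, Pou5f1 and Dppa3 had no count in soma after dex, and all 7 had counts in soma after saline. Their summed level was 2464 to 2985 CPM in germ cells, 2.9 to 6.07 CPM in soma after saline and 15.4 to 20.6 CPM in soma after dex. Markers of somatic cell types were found at low levels in germ cells. Median germ cell levels of the 7 pregranulosa markers were 4.43% of the somatic level in saline and 7.13% in dex libraries, and their summed level ran from 19.9 to 102 CPM in germ cells after dex. For the 6 stromal markers these medians were 0.688% and 0.592%, for the 5 endothelial 15.47% and 17.1%, for the 6 macrophage 4.54% and 12.3%, for the 8 erythroid 0.373% and 0.318% and for the 4 perivascular markers 0.834% and 0.912%. One endothelial marker, Tek, went the other way and was called higher in germ cells in both comparisons (27.5 against 12.4 CPM after saline). The erythroid marker Hbb-bh1 was the one marker at 0 in every germ cell library.

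Variants held most of the histone RNA captured. Their summed level was 1439 ± 50.2 CPM (SD, n = 3) in germ cells after saline and 1446 ± 51.0 CPM in germ cells after dex, against 2453 ± 121 CPM in soma after saline and 2437 ± 14.7 CPM in soma after dex. Clustered genes summed to 68.5 ± 14.3, 77.7 ± 13.8, 85.3 ± 1.55 and 86.7 ± 8.67 CPM in the same order. They thus made up 3.08% to 6.18% of histone reads over the 12 libraries. Over both treatments, the clustered ranges of germ cells (53.1 to 93.0 CPM) and soma (77.5 to 94.8 CPM) overlapped, whereas those of variants did not. Within saline libraries the clustered ranges did not overlap (53.1 to 81.3 CPM in germ cells, 83.7 to 86.8 CPM in soma). Without Hist1h2ba, Hist1h2aa and Hist1h1t, the clustered sums were at most 75.3 CPM in germ cells and at least 77.3 CPM in soma.

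Per kb of exon, the level averaged over the 4 groups was highest for H3f3b at 252 CPM per kb, followed by H1f0 at 169.5, H1fx at 111, H2afz at 92.5 and H2afx at 91.7. H2afv, H3f3a, H2afy2 and H2afy followed at 42.7, 37.9, 27.7 and 21.3 CPM per kb. Only after these came the first clustered gene, Hist1h2ba, at 15.2 CPM per kb, then Hist1h1c at 8.72, Hist1h4n at 8.06 and Hist3h2ba at 7.25. The median clustered gene was at 0.776 CPM per kb. Exon length here is the union over isoforms, so genes with rarely used long exons are understated.

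Germ cells were next compared with soma within the saline libraries, to ask which histone genes distinguish them. Of the 42 members that passed the low-count filter, 31 were called at an adjusted p of at most 0.05 (edgeR's quasi-likelihood test, Benjamini-Hochberg over all genes), 14 higher and 17 lower in germ cells. Without saline germ replicate 3, 9 were called higher. The 31 are 73.8% of the members tested, where 86.1% of all 17941 genes tested were called, 43.1% higher and 42.9% lower. The cell types differed in most genes, and the share of calls among histone genes lay below that of all genes. In the dex libraries 30 of 44 members were called (68.2%), 14 higher and 16 lower, where 84.3% of 18171 genes were called, 42% higher and 42.2% lower.

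The variant genes leaned towards soma. Of 10 variants tested in the saline libraries, 6 were lower and 1 was higher in germ cells, with a median log2 difference (germ minus soma) of -0.60, where the median of all genes was 0.00. In the dex libraries 5 were lower and 1 higher, with a median of -0.48.

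H2afy2 encodes macroH2A2, an H2A variant with a large extra domain that is associated with silent chromatin. Its levels were 10.0, 9.98 and 10.9 CPM in germ cells after saline, 11.7, 12.9 and 9.63 in germ cells after dex, 112, 109 and 114 in soma after saline and 118, 101 and 106 in soma after dex. All 6 germ cell libraries lay about an order of magnitude below all somatic libraries. The log2 difference was -3.42 ± 0.08 (SE) in saline (adjusted p = 2.9e-14) and -3.26 ± 0.11 in dex libraries (adjusted p = 4.7e-10). The germ cell level was 9.23% of the somatic level in saline libraries, above the median of the somatic marker lists except the endothelial one. Single pregranulosa and macrophage markers reached 11.0% and 43.4% there. In dex libraries the H2afy2 level was 10.6%, below the macrophage (12.3%) and endothelial (17.1%) medians. The part of RNA from somatic cells in this germ cell level was not tested. Its paralogue H2afy, encoding macroH2A1, had close levels of 140 ± 7.3 CPM in germ cells after saline and 156 ± 10.9 CPM in soma after saline and was not called (log2 difference -0.14 ± 0.07, adjusted p = 0.081).

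H3f3a and H3f3b encode the same protein, the replacement histone H3.3, from genes on chromosomes 1 and 11. H3f3a was at 49.2, 52.0 and 54.0 CPM in germ cells after saline, 58.2, 55.7 and 67.1 in germ cells after dex, 208, 214 and 244 in soma after saline and 201, 201 and 189 in soma after dex. The 2 cell types did not overlap, and the log2 differences were -2.09 ± 0.08 in saline (adjusted p = 3.6e-12) and -1.73 ± 0.09 in dex libraries (adjusted p = 7.0e-09). H3f3b was lower in germ cells too, but by less, with -0.70 ± 0.07 in saline (adjusted p = 2.3e-07) and -0.82 ± 0.08 in dex libraries (adjusted p = 2.4e-06). Its level was 576 ± 16.7 CPM in germ cells after saline and 941 ± 45.4 CPM in soma after saline.

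The linker variants went in opposite directions. H1f0 encodes H1.0, a linker histone typical of cells that divide little. It stood at 172, 186 and 176 CPM in germ cells after saline and 483, 479 and 525 CPM in soma after saline, and was lower in germ cells by a log2 difference of -1.47 ± 0.07 in saline (adjusted p = 5.0e-11) and -1.62 ± 0.08 in dex libraries (adjusted p = 8.1e-09). H1fx, encoding the linker histone H1.10, was the one variant called higher in germ cells. Its levels were 148, 204 and 171 CPM in germ cells after saline, 175, 159 and 202 in germ cells after dex, 88.0, 97.5 and 102 in soma after saline and 99.3, 82.2 and 91.3 in soma after dex, and the ranges of the cell types did not overlap. The differences were 0.87 ± 0.10 (adjusted p = 1.6e-06) in saline and 0.96 ± 0.10 (adjusted p = 3.8e-06) in dex libraries. By genomic span, introns included and on either strand, H1fx, H2afy2 and H3f3a each overlap 2 other annotated genes. H1f0, H2afx, H2afy, H2afj and H2afb3 overlap 1 each. Whether exons overlap was not examined, and the strand setting of the counting is not given in the sources used here. Whether part of these counts belongs to other genes is therefore uncertain. H1foo, the oocyte linker histone, stayed at or below 0.19 CPM in germ cells and 0.39 CPM in soma.

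The H2A.Z genes H2afz and H2afv encode nearly identical variants found around transcription start sites. H2afv was lower in germ cells, at 38.9 ± 4.1 CPM in germ cells after saline and 101 ± 3.2 CPM in soma after saline (log2 difference -1.36 ± 0.09, adjusted p = 8.6e-10), and likewise in dex libraries (-1.61 ± 0.08, adjusted p = 1.1e-08). H2afz was lower in saline libraries (-0.50 ± 0.07, adjusted p = 1.5e-05) and was not called in dex libraries (-0.15 ± 0.07, adjusted p = 0.067). H2afx was not called in either, with 123 ± 3.4 CPM in germ cells after saline and 125 ± 6.2 CPM in soma after saline and a log2 difference of -0.02 ± 0.07. H2afj, a minor H2A form, was not called either (-0.04 ± 0.20). H2afb3, a short H2A variant, had counts in 2 libraries of soma after saline only, at 0.06 and 0.32 CPM.

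**Figure D2:**
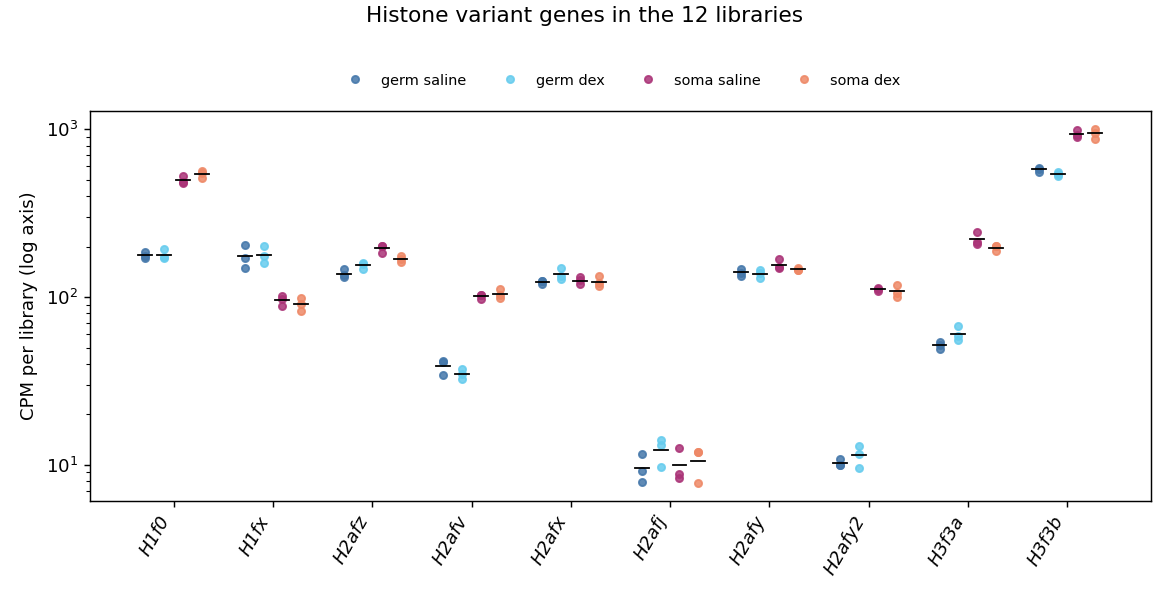
CPM per library on a log axis for the 10 variant genes tested, with 1 point per library, 3 libraries in each of the 4 groups and black bars at the group means. Over both treatments, H2afy2, H3f3a, H1f0, H2afv, H2afz and H3f3b lie lower in germ cells than in soma without overlap and H1fx lies higher, while H2afx, H2afj and H2afy overlap. Within each treatment H2afy lies slightly lower in germ cells without overlap.

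Clustered genes moved in both directions. Of 32 tested in saline libraries, 13 were called higher and 11 lower in germ cells (75%). Of 34 tested in dex libraries, 13 were higher and 11 lower (70.6%). These counts include Hist1h2ba in both comparisons and Hist1h2aa and Hist1h1t in the dex comparison, which passed the low-count filter only through germ cells. So did Hist1h2an (0, 5 and 3 counts in soma after saline) and Hist1h4c (1, 4 and 0), among others. Hist3h2a (3, 5 and 0 counts in germ cells after saline), Hist3h2ba (1, 6 and 16) and Hist1h3d (5, 0 and 1), among others, passed it only through soma. The median log2 difference, with those genes included, was 0.21 in saline and 0.70 in dex libraries. Setting genes at 0 in the soma to their lower bound could not move either median, since the bounds lie above it. Precision was lower than for variants, with a median SE of 0.45 against 0.08 in saline libraries. By type, H4 genes counted 5 higher and 1 lower of 7 tested in saline and 4 higher and 2 lower of 10 in dex libraries. H3 genes counted 2 higher and 3 lower of 5 in saline, and 1 higher and 3 lower of 4 in dex libraries.

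The germline forms, known best from the testis, were found in germ cells and had few or no counts in soma. Hist1h2ba (ENSMUSG00000050799, TH2B) and Hist1h2aa (ENSMUSG00000060081, TH2A) encode an H2B and an H2A that replace the ordinary forms during spermatogenesis, and Hist1h1t (ENSMUSG00000036211) encodes the testis linker histone H1t. Hist1h2ba had 165, 122 and 210 counts in germ cells after saline (10.7, 7.12 and 12.02 CPM) and 199, 241 and 190 in germ cells after dex (13.3, 15.6 and 11.1 CPM). It had 0 counts in all libraries of soma after saline and 0, 0 and 3 in soma after dex. In saline libraries its germ cell mean was at least 52.8-fold higher, taking 3 counts per somatic library as the floor. In dex libraries the ratio was 226, with a 95% exact counting interval of 76.9 to 1098. The intervals and floors cover counting error only, since the reads carried no molecular identifiers.

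Hist1h2aa had 11, 5 and 25 counts in germ cells after saline and 17, 19 and 20 in germ cells after dex, and none in the 6 somatic libraries. Its germ cell mean was at least 4.31-fold higher in saline and at least 6.68-fold higher in dex libraries. Hist1h1t had 10, 5 and 7 counts in germ cells after saline and 29, 12 and 25 in germ cells after dex, and 1 count in 1 library of soma after dex. Its germ cell mean was at least 2.37-fold higher in saline libraries. In dex libraries the ratio was 71.0 (95% exact counting interval 12.3 to 2845). All 3 genes were thus found in every germ cell library. The somatic library that held the 3 Hist1h2ba counts also held the Hist1h1t count.

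Hist1h2ba and Hist1h2aa lie head to head on chromosome 13, at 23933773-23934156 on the minus strand and 23934462-23934851 on the plus strand (GRCm38), with 305 nt between the annotated genes. This shared stretch is shown because both genes were detected in germ cells and not, or barely, in soma. The 250 bases upstream of the Hist1h2aa start given by RefSeq (GRCm38.p6, chr13:23934187-23934436, plus strand) are printed with capitals at every match, on either strand, to the box CCAAT, to the TATA sequence TATAAA and to the octamer, which reads ATGCAAAT.
Hist1h2aa upstream region: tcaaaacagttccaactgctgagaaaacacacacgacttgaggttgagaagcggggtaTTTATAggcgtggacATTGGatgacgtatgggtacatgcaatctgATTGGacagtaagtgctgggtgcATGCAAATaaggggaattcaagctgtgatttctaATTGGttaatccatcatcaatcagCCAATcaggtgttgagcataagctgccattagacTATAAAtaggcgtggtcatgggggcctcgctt
It held 4 CCAAT, 2 TATAAA and 1 octamer match. In the same window CCAAT was found in 82.3% of 62 clustered promoters, 64.3% of 14 variant promoters and 33.9% of all 32851 RefSeq promoters. TATAAA was found in 46.8%, 7.14% and 12.4%, and the octamer in 21.0%, 7.14% and 1.60%. The E-box CACGTG was found in none of the clustered promoters, 7.14% of variant and 6.02% of all promoters. These are matches of letters, on both strands, and not evidence of binding.

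Among clustered genes of wider expression, Hist1h4n was higher in germ cells. It was at 5.63, 4.67 and 7.15 CPM in germ cells after saline, 6.17, 7.64 and 4.67 in germ cells after dex, 1.07, 0.58 and 0.61 in soma after saline and 0.79, 1.80 and 0.83 in soma after dex. The groups did not overlap, and the log2 difference was 2.95 ± 0.33 in saline (adjusted p = 6.8e-07) and 2.39 ± 0.38 in dex libraries (adjusted p = 1.2e-04). Hist1h4n had 19.3% unique windows, so its counts may be shared with other H4 copies. Hist1h4d, another H4 gene with 100% unique windows, was at 4.92 ± 1.48 CPM in germ cells after saline and 1.16 ± 0.45 CPM in soma after saline (log2 difference 2.10 ± 0.34, adjusted p = 3.9e-05) and was higher in dex libraries as well (2.30 ± 0.45, adjusted p = 5.5e-04). Hist1h2an (H2A), with 16.7% unique windows, was higher in germ cells by 3.17 ± 0.66 and 2.31 ± 0.61.

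Linker genes of the Hist1 cluster split. Hist1h1a was higher in germ cells, at 2.81 ± 0.26 against 0.74 ± 0.27 CPM in saline libraries (1.94 ± 0.37, adjusted p = 1.7e-04) and again in dex libraries (1.89 ± 0.57, adjusted p = 0.0096). Hist1h1e was higher by 1.18 ± 0.33 (adjusted p = 0.0041) and 1.18 ± 0.29 (adjusted p = 0.0029). By genomic span, Hist1h1e and Hist1h2be each overlap 2 other annotated genes and Hist1h2aa and Hist1h2an 1 each, so part of their counts may be uncertain too. Hist1h1d was not called (0.52 ± 0.43 and 0.67 ± 0.39). Hist1h1c was lower in germ cells, at 8.02, 5.43 and 5.26 CPM in germ cells after saline and 19.3, 24.6 and 20.7 CPM in soma after saline. Its log2 difference was -1.78 ± 0.18 in both saline (adjusted p = 2.1e-07) and dex libraries (adjusted p = 3.6e-06). Hist1h1b was lower in saline libraries (-1.47 ± 0.45, adjusted p = 0.0067) and not called in dex libraries (-0.71 ± 0.59, adjusted p = 0.28).

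Among clustered genes that passed the low-count filter, the largest differences towards soma were in genes outside the Hist1 cluster. Of these, Hist3h2ba and Hist3h2a passed it only through soma. Hist1h2bh (H2B), a Hist1 gene that did not pass it, had 0, 1 and 0 counts in germ cells after saline and 11, 15 and 9 in soma after saline. Hist2h2be (H2B) was at 0.97, 0.93 and 0.74 CPM in germ cells after saline, 0.67, 1.62 and 0.76 in germ cells after dex, 15.4, 13.9 and 15.004 in soma after saline and 12.46, 15.9 and 17.7 in soma after dex. The log2 difference was -4.05 ± 0.22 in saline (adjusted p = 1.4e-10) and -3.93 ± 0.31 in dex libraries (adjusted p = 3.9e-07). Hist3h2ba (H2B) was at 0.06, 0.35 and 0.92 CPM in germ cells after saline and 9.64, 10.1 and 10.1 CPM in soma after saline, a log2 difference of -4.41 ± 0.40 (adjusted p = 6.8e-08), and differed by -3.84 ± 0.32 in dex libraries (adjusted p = 6.5e-07). Its neighbour Hist3h2a (H2A) was lower in germ cells by -4.08 ± 0.56 (adjusted p = 6.9e-06) and -4.43 ± 0.58 (adjusted p = 2.8e-05), and overlaps 2 other annotated genes. Germ cell levels of Hist2h2be, Hist3h2ba and Hist3h2a were 5.98%, 4.47% and 5.68% of the somatic level in saline libraries, beside 4.43% for the median pregranulosa and 4.54% for the median macrophage marker. The part of RNA from somatic cells in these germ cell levels was not tested.

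Within the Hist1 cluster, Hist1h2bc (H2B) was lower in germ cells (-2.61 ± 0.37 and -1.73 ± 0.42), as was Hist1h3d (H3, -3.14 ± 0.69 and -2.94 ± 0.53). Hist1h3e (H3) was lower by -1.26 ± 0.45 in saline (adjusted p = 0.018) and -2.39 ± 0.51 in dex libraries (adjusted p = 0.0010). Hist4h4 (H4) was lower by -1.30 ± 0.45 (adjusted p = 0.015) and -1.66 ± 0.65 (adjusted p = 0.033). Hist1h2be (H2B) was not called (-0.36 ± 0.39 and -0.17 ± 0.42). Hist1h2bm (H2B) was higher in germ cells (1.69 ± 0.47 and 1.87 ± 0.59), and Hist1h4i and Hist1h4k (H4) were higher in saline libraries (0.83 ± 0.31 and 0.95 ± 0.37) and not called in dex libraries (adjusted p = 0.061 and 0.069).

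Several of these calls near the threshold changed when 1 library was left out. In saline libraries Hist1h3e lost its call without saline germ replicate 1 or saline somatic replicate 1 (adjusted p = 0.068 and 0.096), Hist1h4i without saline germ replicate 3 or saline somatic replicate 2 (0.14 and 0.11) and Hist1h4k without saline germ replicate 3 or saline somatic replicate 2 or 3 (0.12, 0.097 and 0.060). Hist4h4 lost it without saline germ replicate 1 or saline somatic replicate 1 or 3 (0.070, 0.0502 and 0.052). In dex libraries Hist4h4 lost it without dex germ replicate 1 or 3 or dex somatic replicate 1 or 2 (0.12, 0.11, 0.051 and 0.13), and Hist1h2bm without dex germ replicate 2 (0.053). Calls were gained in dex libraries by Hist1h1b without dex germ replicate 2 (0.043), Hist1h1d without dex somatic replicate 2 (0.027), Hist1h4i without dex somatic replicate 1 (0.017) and Hist1h4k without dex germ replicate 3 or dex somatic replicate 2 (0.015 and 0.041). Among variants, H2afz gained a call in dex libraries without dex somatic replicate 3 (0.048), and H2afy in saline libraries without saline germ replicate 1 or saline somatic replicate 1 or 2 (0.042, 0.044 and 0.044).

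**Figure D3:**
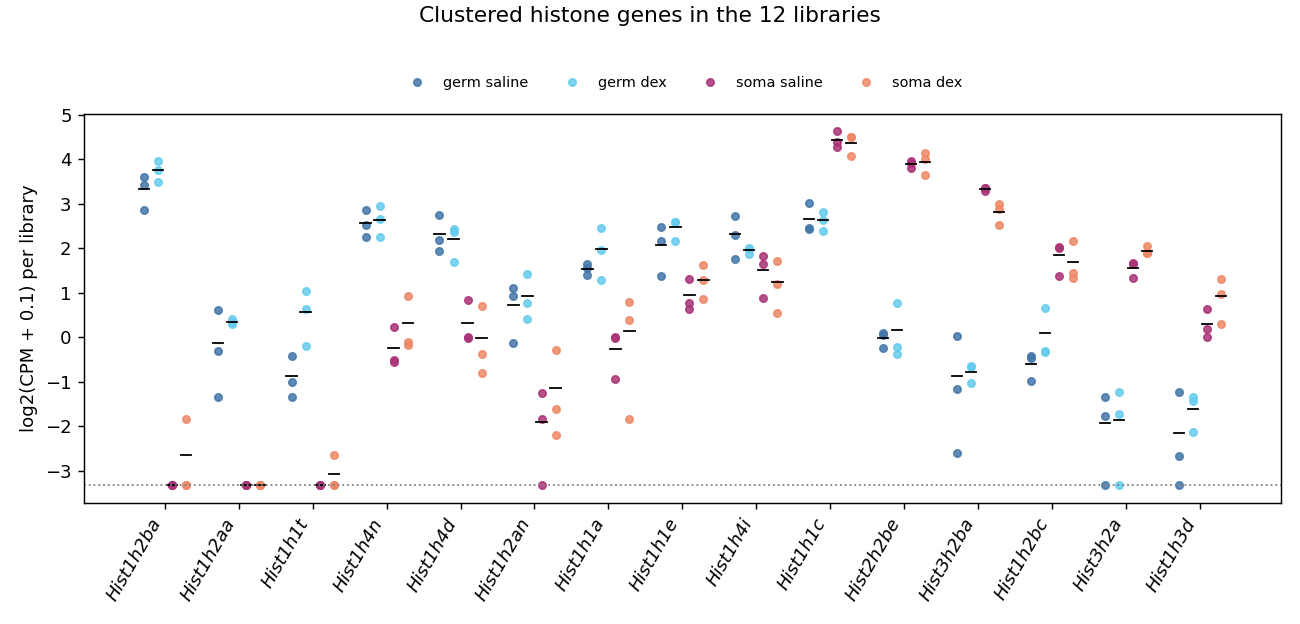
log2(CPM + 0.1) per library for 15 clustered genes, with 1 point per library in the 4 groups and bars at the group means. The dotted line marks 0 CPM, where Hist1h2ba, Hist1h2aa and Hist1h1t lie in soma after saline. Genes from Hist1h1c to the right lie lower in germ cells.

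Clustered genes in which a poly-A signal was or was not found divided differently between the cell types. The 17 clustered genes with a signal summed to 18.9 and 20.1 CPM in germ cells after saline and after dex and to 57.5 and 56.1 CPM in soma after saline and after dex. Most of the 57.5 CPM came from Hist1h1c (21.5 CPM), Hist2h2be (14.8 CPM) and Hist3h2ba (9.93 CPM), so the sum reflects few genes. The 50 without one summed to 49.6 and 57.6 CPM in germ cells and to 27.8 and 30.5 CPM in soma. They include the 13 genes with no annotated sequence after the stop codon, in which no signal could be found. Hist1h2ba, at 9.94 CPM in germ cells after saline, is among these. The 50 also include Hist1h1d and Hist1h1e, with 4884 and 1153 nt of annotated transcript beyond the hairpin. In saline libraries 1 gene with a signal was called higher and 5 lower of 9 tested, and 12 without one were called higher and 6 lower of 23 tested. In dex libraries these counts were 2 higher and 6 lower of 13, and 11 higher and 5 lower of 21. Of all genes tested, 86.1% were called in saline and 84.3% in dex libraries. The 2 sets also differed in sequence, with median unique windows of 81.0% and 50.7%, and this difference was not tested.

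RNAs known to lack a poly-A tail were read out too, and they gave no single measure of untailed carry-through. Of 8 such RNAs listed, 4 had no count in soma and 5 none in germ cells, and 2 passed the filter in the saline comparison, 1 called higher and 1 lower in germ cells. Small nuclear RNA genes summed to 78.7 CPM (71.0 to 88.2) in germ cells after saline and 28.7 CPM (28.0 to 29.2) in soma after saline, whereas small nucleolar RNA genes summed to 70.1 and 110 CPM. Small Cajal body RNA genes summed to 4.14 and 4.74 CPM. The part of untailed RNA in the germ cell levels of clustered genes was not tested.

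The saline and dex libraries share no sample, and each gave its own comparison of the cell types. Of the 36 members tested in both, 25 were called in both in the same direction, 11 higher and 14 lower, and 0 were called in opposite directions. These 25 were 80.6% of all saline calls and 83.3% of all dex calls. Of all genes tested, 86.1% were called in saline and 84.3% in dex libraries. The share of all genes called alike in both was not computed, so whether the overlap is particular to histone genes was not tested. Among the genes tested in both, H2afz, Hist1h1b, Hist1h4i and Hist1h4k were called in saline libraries alone.

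**Figure D4:**
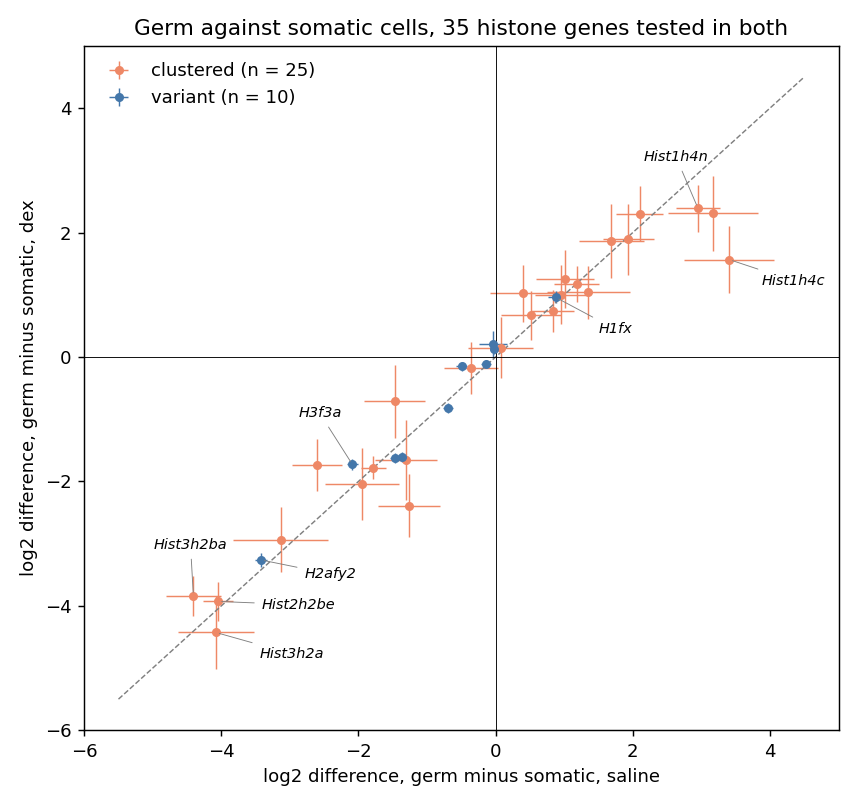
log2 difference of germ cells minus soma in saline libraries (x axis) and dex libraries (y axis) for 35 histone genes tested in both, with SE bars and the line of equality dashed. Hist1h2ba is left out because its fitted value depends on 0 counts in soma after saline. Most genes lie near the line, from Hist3h2ba and Hist2h2be at the lower left to Hist1h4n and Hist1h4c at the upper right.

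The effect of dex on germ cells was examined to see whether exposure altered histone RNA. No member was called among 38 tested, 10 variants and 28 clustered genes, where 0.208% of 16857 genes were called. DESeq2 called 0 as well, and 4 members had an unadjusted p under 0.05 in the edgeR test. The median log2 difference (dex minus saline) was 0.10 for variants and 0.26 for clustered genes, where the median of all genes was 0.01. Among variants it ranged up to 0.36 ± 0.19 for H2afj.

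Hist1h1t had the lowest p. Its levels were 0.65, 0.29 and 0.40 CPM in germ cells after saline and 1.94, 0.78 and 1.46 CPM in germ cells after dex. The groups did not overlap, and the log2 difference was 1.64 ± 0.50 (edgeR adjusted p = 0.26). It rests on 22 counts in saline and 66 counts in dex libraries. H3f3a differed by 0.23 ± 0.08 (adjusted p = 0.33) and H2afz by 0.18 ± 0.07 (adjusted p = 0.34). Hist1h2ba, at 9.94 ± 2.53 CPM in germ cells after saline and 13.3 ± 2.25 CPM in germ cells after dex, differed by 0.43 ± 0.20 (adjusted p = 0.45). Dex libraries lay wholly above saline libraries for 8 members and wholly below for 1 of the 38, beside 17.4% of all genes with groups apart in either direction.

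In soma, dex likewise gave 0 calls among 40 members tested (10 variants and 30 clustered genes) by edgeR, where 8.18% of 16556 genes were called. There were 3 with an unadjusted p under 0.05, and DESeq2 called 1, H2afz. H2afz was at 184, 201 and 201 CPM in soma after saline and 169, 177 and 162 CPM in soma after dex, all dex libraries below all saline libraries. Its log2 difference was -0.21 ± 0.07 (edgeR adjusted p = 0.072, DESeq2 adjusted p = 0.033, and edgeR without the low-count filter adjusted p = 0.032). Hist3h2ba was at 9.64, 10.1 and 10.1 CPM in soma after saline and 5.62, 7.28 and 7.92 CPM in soma after dex, a log2 difference of -0.52 ± 0.17 (adjusted p = 0.091) that was called when soma after dex replicate 3 was left out (-0.62, adjusted p = 0.041). H3f3a differed by -0.18 ± 0.07 (adjusted p = 0.18). The median log2 difference was -0.04 for variants and 0.21 for clustered genes, where that of all genes was 0.00.

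In soma, 1 member had all dex libraries above and 5 had all dex libraries below saline libraries, beside 25.4% of all genes with groups apart in either direction. Levels of macrophage markers moved with dex in soma. Of the 6 macrophage markers, 4 were called lower after dex, and their summed level was 175 to 251 CPM in soma after saline and 45.0 to 121 CPM in soma after dex. Erythroid markers summed to 7411 to 12491 CPM in soma after saline and 3327 to 16544 CPM in soma after dex, and none of them was called. Their part in the somatic histone values was not tested.

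The difference of the dex effect between cell types (germ minus soma) was tested for 51 members, 10 variants and 41 clustered genes. No member was called by edgeR, where 1.62% of 19390 genes were called, 4 had an unadjusted p under 0.05, and DESeq2 called 1, H2afz. For H2afz the difference was 0.38 ± 0.10 (edgeR adjusted p = 0.062, DESeq2 adjusted p = 0.015), and without saline germ cell replicate 2 it was called by edgeR (0.43, adjusted p = 0.043). For H3f3a it was 0.39 ± 0.12 (adjusted p = 0.11), and for Hist1h2bj (H2B) 2.27 ± 1.01 (adjusted p = 0.29). In both H2afz and H3f3a, dex libraries lay above saline libraries in germ cells and below them in soma.

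**Figure D5:**
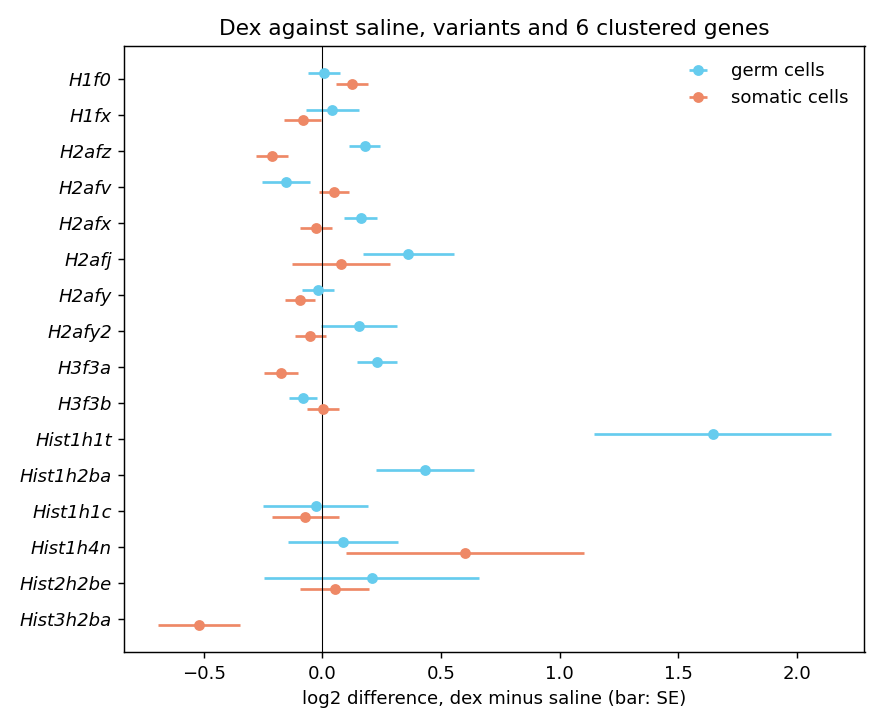
log2 difference of dex minus saline in germ cells and in soma for the 10 variants tested and 6 clustered genes, with bars of 1 SE. Values of H2afz and H3f3a lie above 0 in germ cells and below 0 in soma. Hist1h1t (1.64) and Hist1h2ba have a germ cell value only and Hist3h2ba a somatic value only, because the low-count filter removed them from the other test.

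The genes that make or handle histone RNA were described from a list of 16 processing factors. In germ cells 12 were higher and 3 lower than in soma in saline libraries, and 11 were higher and 2 lower in dex libraries, where 86.1% and 84.3% of all genes were called in the same comparisons. The median log2 difference was 0.96 in saline libraries. Slbp, which binds the stem-loop, was at 151 ± 7.1 CPM in germ cells after saline and 95.9 ± 2.9 CPM in soma after saline (0.66 ± 0.07). Npat, a coactivator of clustered histone genes, was at 206 ± 6.7 against 47.0 ± 3.6 CPM (2.14 ± 0.08), and Casp8ap2, which takes part in their transcription and 3′ end formation, at 194 ± 9.6 against 53.9 ± 4.3 CPM (1.86 ± 0.08). All 3 were called higher in germ cells in both comparisons. None of the 16 was called for dex in either cell type or for the difference.

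Among 22 histone chaperones and the centromeric histone Cenpa, 14 were higher and 5 lower in germ cells after saline, and 12 higher and 5 lower in germ cells after dex, a share near the 86.1% of all genes called in saline and below the 84.3% called in dex libraries. Cenpa, an H3 variant outside the symbol rule, was lower in germ cells by -2.99 ± 0.14 in saline and -2.87 ± 0.12 in dex libraries. None was called for dex within a cell type. Nap1l1, a chaperone of H2A and H2B, was the one called for the difference (-0.41 ± 0.09, adjusted p = 0.026), with 765 and 636 CPM in germ cells after saline and after dex and 535 and 589 CPM in soma after saline and after dex. Of 20 S phase genes, 7 were higher and 11 lower in germ cells in both saline and dex libraries, again beside 86.1% and 84.3% of all genes called, and none was called for dex or for the difference.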

How the data were processed

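RNA of GFP-positive and GFP-negative ovary cells was captured on poly-dT beads, converted to cDNA from random hexamers and sequenced paired-end. Per the labels' processing notes, the authors used HISAT2 2.0.5, featureCounts 1.5.0-p3 and the mm10 assembly. The authors deposited raw counts per gene for the 12 libraries, with no normalization. Their FPKM values and their own dex comparisons, made with DESeq2 1.20.0, were not used. How multi-mapping reads and strand were handled is not given in the sources used here.

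All 54532 genes entered edgeR 4.0.16 in R 4.3.3 (TMM scaling, filterByExpr by group, quasi-likelihood test, Benjamini-Hochberg adjustment over all genes tested, adjusted p of at most 0.05, no fold minimum), and the histone rows were then read out. Each pairwise test used only its own 6 libraries, and the test of the difference used all 12. SE is the log2 difference over the square root of the F statistic. The script was tested on simulated counts. Alternatives were RLE scaling, no low-count filter, DESeq2 1.42.0, a replicate block, 1 fit of all 12 libraries and leaving out each library. CPM is the count scaled to depth, with the library total times its TMM factor as depth. Replicates are labelled as biological, and counts of no pair agreed within sampling noise (lowest chi-square per degree of freedom 5.48).

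Named genes were every variant reaching 3 counts in a library, a fixed set of 14 clustered genes, the 10 clustered genes of highest CPM per kb, the 5 largest and 5 smallest called clustered differences per cell type comparison with a mean of at least 1 CPM, and for each dex and difference test the 3 members of lowest p where none was called. Hist1h4c, Hist1h2bh, Tek and the genes named as having no counts were chosen after their values were seen. The members and lists were chosen with earlier results of these data known.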

Additional observations from a re-analysis of the deposited data

Results flagged for a closer look

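H2afz and H3f3a were picked out because their dex and saline libraries did not overlap in either cell type and moved in opposite directions, up in germ cells and down in soma. The difference of the dex effect (germ minus soma, log2) was 0.38 for H2afz and 0.39 for H3f3a, and by edgeR neither passed the adjusted threshold (adjusted p = 0.062 and 0.11). Of all 19390 genes tested for the difference, 419 (2.16%) showed such opposite separation. For outlying libraries no test was made, since every group held 3 libraries.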

How the results depend on the processing

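Counts of members called higher in germ cells in saline libraries ranged from 9 (without saline germ replicate 3) to 16 when 1 library was left out, from 14 with all. Dex in soma gave 0 members called lower in the main test and 1, H2afz, without the low-count filter and 1 by DESeq2, and from 0 to 1 when 1 library was left out (Hist3h2ba without dex soma replicate 3). For the difference of the dex effect, 0 became 1 by DESeq2 and ranged from 0 to 1 when 1 library was left out, H2afz in each case. The cause of these changes was not tested. Over all genes, 35 calls for dex in germ cells became 420 without the filter and 158 by DESeq2, and 314 calls for the difference became 727 and 620. With plain library totals the summed variant level in soma after dex was 2388 CPM. Same-numbered germ and somatic libraries correlated at 0.05 to 0.10 in their deviations, and those of other numbers at -0.0099 or lower. Same-numbered dex and saline libraries correlated at -0.01 to 0.13. The main tests did not take the numbers as pairs. Whether same-numbered germ and somatic libraries came from the same pools is not given in the sources used here. Germ and somatic libraries correlated best with their own number in every case. With a replicate block, 11 and 10 members were called higher in germ cells in saline and dex libraries, and 17 and 16 lower.

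Reversals were found only among members that neither fit called. H2afx between cell types in saline libraries was 0.019 with RLE scaling and 0.014 by DESeq2. H1f0 in germ cells after dex was -0.00019 without the filter, -0.0018 by DESeq2 and -0.00026 in 1 fit of all 12 libraries. H3f3b in soma after dex was -0.00084 with RLE scaling, -0.0072 without the filter and -0.0021 by DESeq2. When 1 library was left out, log2 differences between cell types in saline libraries ran from -0.20 to 0.16 for H2afj, -0.092 to 0.0088 for H2afx and -0.23 to 0.71 for Hist1h2bj, and in dex libraries from -0.46 to 0.16 for Hist1h2be. Those of dex in germ cells ran from -0.056 to 0.036 for H1f0, -0.063 to 0.17 for H1fx and -0.066 to 0.019 for H2afy. Those of dex in soma ran from -0.037 to 0.29 for H2afj, -0.080 to 0.018 for H2afx and -0.043 to 0.054 for H3f3b. Over all alternatives, named members lost a call 17 times and gained one 3 times between cell types in saline libraries, and 6 and 11 times in dex libraries, each without a change of direction. By DESeq2, Hist1h1b, Hist1h3e, Hist1h4k and Hist4h4 were not called in saline libraries (adjusted p = 0.064, 0.069, 0.071 and 0.096). Hist1h4k also lost its saline call with the replicate block (0.064), in 1 fit of all 12 libraries (0.053) and without the filter (0.052), while its dex difference was called in that fit and without the filter (0.032 and 0.037). Low counts limit the clustered genes, with a median of 9.25 counts per gene and library.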
